A study of Mus musculus with 12 samples.

Results

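The 37 genes of the mouse mitochondrial genome were followed across 6 groups of RNA-seq libraries: every gene whose symbol begins with mt- was taken from the gene tables, out of 53715 genes listed. They comprise 13 protein-coding genes, 2 rRNA genes and 22 tRNA genes, of which 28 lie on the plus strand and 9, mt-Nd6 and 8 tRNA genes, on the minus strand. The mouse embryonic stem (mES) cells, of the line E14 kept in LIF/2i medium on mouse embryonic fibroblast feeders that were depleted before RNA extraction, were treated with CX-5461, which blocks RNA polymerase I, with rapamycin, which inhibits mTOR, or with rotenone, which inhibits respiratory complex I, or were left untreated (Control). C57BL/6J embryos, pooled within a library, were treated with CX-5461 on the way from morula to blastocyst or left untreated. Each of the 6 groups holds 2 libraries, 8 of mES cells and 4 of embryos. The labels do not say what separates the libraries of a group, and the study describes them as biologically independent. The p-values measure the spread between libraries of a group, pooled over the groups of a fit, and 1 cell line stands for the mES cells.

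The mitochondrial genome is a small circle whose strands are each copied into long transcripts by a single nuclear-encoded polymerase, POLRMT. The long transcripts are cut at the tRNAs that lie between most of the other genes, and most of the freed mRNAs and both rRNAs receive short A tails. Its mRNAs encode core subunits of complexes I, III, IV and V of oxidative phosphorylation, which are assembled with subunits made from nuclear genes.

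The sequences that decide where reads of these genes can be placed came from the GENCODE M21 transcripts of GRCm38, the same assembly as the mm10 used for the tables. A stretch of the mitochondrial genome, chrM:6381-11042, is spanned by matches to 7 pseudogenes annotated on the minus strand of chromosome 1 at chr1:24611535-24616197. Only the annotated pseudogenes were compared. The bases between them, which include the tRNA genes mt-Tg and mt-Tr and most of mt-Atp8, were not. Of 4149 aligned bases in the 7 pairs, 7 differed, and 5 of the 7 pairs were identical. The whole annotated Gm10222 (chr1:24612407-24612700, minus strand) is letter for letter the beginning of mt-Nd4l (chrM:9877-10173, plus strand), and is printed once as an example of a sequence that cannot be assigned to either place.
mt-Nd4l and Gm10222: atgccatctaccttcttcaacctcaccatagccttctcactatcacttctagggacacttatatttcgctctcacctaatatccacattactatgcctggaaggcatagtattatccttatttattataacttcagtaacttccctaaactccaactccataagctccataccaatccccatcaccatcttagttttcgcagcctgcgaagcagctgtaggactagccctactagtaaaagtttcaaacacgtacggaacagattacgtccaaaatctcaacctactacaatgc
The pair with most differences is mt-Co1 (chrM:5328-6872, plus strand) with Gm29216 (chr1:24615706-24616197, minus strand), whose 6 mismatches all lie at the start of the copy. The pair is shown over 82 bases, with the mismatched bases in capitals; counted from the first base of mt-Co1 they are T1056A, C1057T, A1059G, A1060G, C1062A and A1066T.
mt-Co1: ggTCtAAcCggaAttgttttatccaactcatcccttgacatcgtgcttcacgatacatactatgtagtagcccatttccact
Gm29216: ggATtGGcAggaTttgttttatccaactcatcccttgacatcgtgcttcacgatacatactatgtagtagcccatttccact
Of the mRNA genes, mt-Co2, mt-Atp8, mt-Atp6, mt-Co3, mt-Nd3 and mt-Nd4l lie wholly within the copied stretch, mt-Co1 and mt-Nd4 lie partly in it, and mt-Nd1, mt-Nd2, mt-Nd5, mt-Nd6 and mt-Cytb lie outside. Between 98.0 and 100% of the 50-base words of the 5 genes within it that have an annotated copy occurred in a nuclear transcript. The share was 51.1% for mt-Co1, 62.2% for mt-Nd4, 8.19% for mt-Nd2, 7.61% for mt-Nd5 and 0 for mt-Nd1, mt-Nd6 and mt-Cytb. mt-Atp8 has no annotated copy. The nuclear transcripts counted include pseudogenes outside chromosome 1. On chromosome 2, Gm13340 shared 411 words with mt-Co1 and Gm13339 shared 81 with mt-Nd2.

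Of the tRNA genes, the results turn on a run of 3 neighbours between mt-Nd4 and mt-Nd5 and on 3 further genes. The run holds the tRNAs for histidine (mt-Th, chrM:11546-11612), serine (mt-Ts2, chrM:11613-11671) and leucine (mt-Tl2, chrM:11671-11741), all on the plus strand.
mt-Th: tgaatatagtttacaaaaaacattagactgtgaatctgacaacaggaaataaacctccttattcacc
mt-Ts2: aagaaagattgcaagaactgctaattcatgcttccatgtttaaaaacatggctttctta
mt-Tl2: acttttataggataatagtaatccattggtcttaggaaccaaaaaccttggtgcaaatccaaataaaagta
The others are the tRNAs for glycine (mt-Tg, chrM:9391-9458) and arginine (mt-Tr, chrM:9808-9875), on either side of mt-Nd3 and inside the copied stretch, and for methionine (mt-Tm, chrM:3845-3913), just before mt-Nd2, again all on the plus strand.
mt-Tg: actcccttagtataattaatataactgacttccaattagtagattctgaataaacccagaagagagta
mt-Tr: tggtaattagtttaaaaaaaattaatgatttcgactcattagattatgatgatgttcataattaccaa
mt-Tm: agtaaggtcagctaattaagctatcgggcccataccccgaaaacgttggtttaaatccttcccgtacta
At 59 to 75 bases, tRNA genes are shorter than a usual RNA-seq fragment, and their TPM (reads per base of gene, scaled to a fixed total per library) can include reads of the precursor around them. Strand was not stated for the counting, so reads of mt-Nd6 and of minus-strand tRNAs cannot be told apart from reads of the opposite strand.

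Libraries were scaled to the same total of TPM. This mattered only for embryo Control replicate 1, whose values summed to 639063, while the other 11 libraries summed to between 999805 and 999914. Why that library summed to less is not given in the sources used here. All embryo comparisons below use its rescaled values unless stated. Pluripotency markers were present in every mES group, with none of 10 at 0. Fibroblast markers, which mark the feeders, were also present: the summed level of 15 markers was 3396 to 3577 TPM in CX-5461-treated, 1347 to 1636 TPM in rapamycin-treated, 2861 to 3158 TPM in rotenone-treated and 731 to 912 TPM in Control mES cells. All 15 rose with CX-5461 and all 15 with rotenone, and 0 passed the test with rapamycin (limma, 10 at an unadjusted p under 0.05). Their part in the results below was not tested. In embryos the same markers summed to 0.932 to 3.50 TPM with CX-5461 and 0.572 to 0.696 TPM in Control, with Col3a1, Lox, Fbn1, Lum, Fap and Prrx1 at 0 in both groups. Trophectoderm markers summed to 5085 to 7056 TPM in CX-5461-treated and 5822 to 5971 TPM in Control embryos, with none of 10 at 0.

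In mES cells mt-Co1, the catalytic core of complex IV, was the most abundant mRNA, at a mean of 8735 TPM over the 8 libraries (7563 to 10419.6 TPM). It was followed by mt-Nd1 of complex I at 4550.4 TPM (3616 to 6059) and mt-Cytb, cytochrome b of complex III, at 4148 TPM (3547 to 4934). The level of mt-Co1 did not overlap with those of mt-Nd1 and mt-Cytb, which overlapped with each other. The complex I genes mt-Nd2 (2059 TPM), mt-Nd5 (1935 TPM) and mt-Nd6 (1798 TPM) came next and overlapped among themselves. mt-Nd4 averaged 1376 TPM, with 1 library far below the others. The 6 genes within the copied stretch came last, at 165 TPM for mt-Co2, 82.3 TPM for mt-Atp8, 74.2 TPM for mt-Co3, 41.0 TPM for mt-Atp6, 31.1 TPM for mt-Nd4l and 15.1 TPM for mt-Nd3. Every library of mt-Co2, the highest of the 6, was below every library of the 5 genes outside the stretch.

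**Figure D1:**
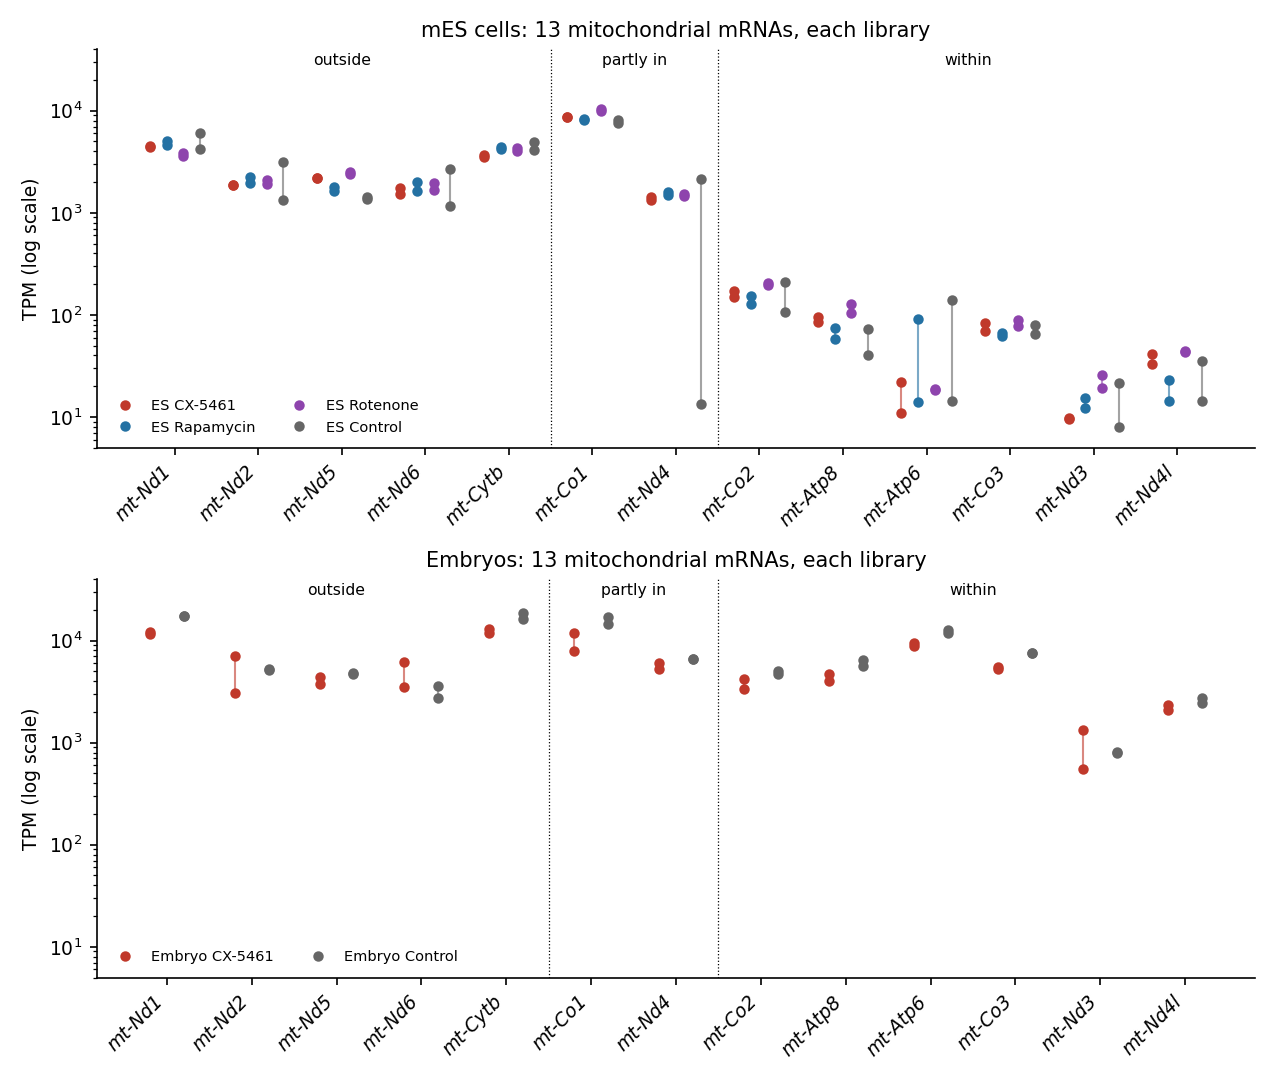
Levels of the 13 mitochondrial mRNAs in TPM (log scale) in mES cells (top) and embryos (bottom); each point is a library and a line joins the 2 libraries of a group. Dotted lines separate genes outside, partly in and within the stretch copied on chromosome 1: in mES cells the genes within it lie between 7.98 and 208 TPM, in embryos between 557 and 12816 TPM, and mt-Nd4 of Control replicate 2 stands at 13.4 TPM.

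The embryo tables gave another order. mt-Cytb (mean 14975 TPM over 4 libraries), mt-Nd1 (14636 TPM) and mt-Co1 (12848 TPM) were highest, and mt-Atp6, a subunit of the proton channel of complex V and among the least abundant in mES cells, was the fourth at 10740 TPM. Means in embryos were 2.23 to 3.61 times those in mES cells for the 5 genes outside the copied stretch, and 26.3 (mt-Co2) to 262 times (mt-Atp6) for the 6 within it. The tables were normalized separately and the libraries made with different kits, so these ratios are descriptive. The 6 genes within the stretch carried 32.0 to 32.9% of mitochondrial mRNA TPM in the 4 embryo libraries and 1.23 to 1.99% in the 8 mES libraries.

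The nuclear copies differed in the same way between the tables. Gm10925, the copy of mt-Atp6, was listed at 9631 and 9000 TPM in CX-5461-treated embryos, against 12052 and 13057 TPM in Control embryos, which is 1.01 to 1.02 times the level of mt-Atp6 in each library. Gm28661 and Gm28437, the copies of mt-Co2 and mt-Co3, were at 0.986 to 0.998 times their genes in the 4 embryo libraries. In mES cells the summed level of the 7 copies was 319 to 548 TPM, against 29369.6 to 38043 TPM in embryos. Gm28438, the copy of mt-Nd3, was at 0.711 to 0.881 times its gene in embryos and 2.04 to 6.56 times in mES cells. In mES cells mt-Atp6 and Gm10925 moved apart: their ratio, copy over gene, was between 4.49 and 8.21 in 6 libraries, but 0.985 in rapamycin replicate 2 and 0.899 in Control replicate 1. How reads shared by a gene and its copy entered the tables is not shown by them, and its part in the levels was not tested. mt-Atp8, within the copied stretch but with no annotated copy, was at 63.4 times its mES mean in embryos. The search for copies covered annotated transcripts only, so it does not show where reads of mt-Atp8 can be placed. Over the sequence they share, a fold change of a gene cannot be told apart from that of its copy. mt-Co1 and mt-Nd4 are shared only in part. In mES cells Gm29216 was listed at 0.00539 to 0.0122 times mt-Co1, and Gm28439 at 0.00912 to 1.01 times mt-Nd4. Of the 7 copies, Gm10222 and Gm28439 rose with CX-5461 in mES cells, by 0.98 and 0.62 on the log2 scale. Gm10222, Gm28438 and Gm28439 rose with rotenone, by 1.60, 1.32 and 0.73. The adjusted p of these calls was 0.00148 to 0.0320 by limma. Of all genes tested, 42.0% rose with CX-5461 and 30.6% with rotenone.

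**Figure D2:**
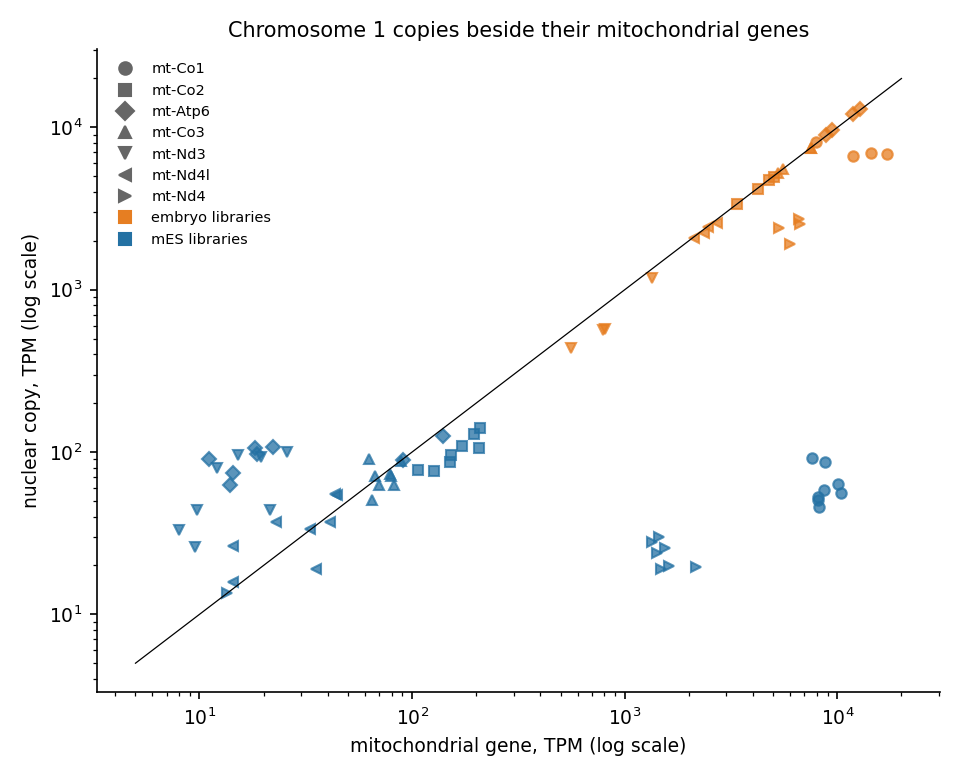
Level of each chromosome 1 copy against its mitochondrial gene, in TPM on log axes, with 1 point per library, shapes for the 7 pairs and a line where the levels are equal. In embryos the copies of mt-Co2, mt-Co3, mt-Atp6 and mt-Nd4l lie on or near the line at 2089 to 13057 TPM; in mES cells the copies lie between 13.5 and 140 TPM and those of mt-Co1 and mt-Nd4 fall far under it, except mt-Nd4 of Control replicate 2.

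The share of all TPM in mitochondrial mRNAs was 2.46 and 2.41% in CX-5461-treated, 2.42 and 2.54% in rapamycin-treated and 2.57 and 2.72% in rotenone-treated mES cells, against 2.84 and 2.06% in Control mES cells. The Control libraries lay on either side of all 6 treated ones. In embryos the share was 8.11 and 7.83% with CX-5461, against 10.2 and 10.8% in Control, and the groups did not overlap after scaling. With the values as deposited, the means were 7.97% with CX-5461 and 8.64% in Control. No test was run on a share over the members. In a share, fewer mitochondria, less RNA in each and more RNA of other genes cannot be told apart. Adding the 7 nuclear copies gave means of 11.1% with CX-5461 and 14.2% in Control embryos. tRNA genes carried 0.152 to 0.256% of TPM in mES libraries and 0.369 to 0.592% in embryo libraries. The rRNA genes carried 0.136 and 0.139% in CX-5461-treated mES cells and 0.0657 to 0.0918% in the other 6 mES libraries; all libraries of mES cells had been selected for poly-A RNA, so rRNA levels are those of the tailed part only.

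The Control replicates stood far apart for these genes. Between them the median difference over the 13 mRNAs was 0.96 on the log2 scale, against 0.09 between CX-5461, 0.21 between rapamycin and 0.09 between rotenone replicates. mt-Nd2 was at 3151 TPM in Control replicate 1 and 1334 TPM in Control replicate 2, mt-Nd6 at 2670 and 1154 TPM and the adjoining tRNA gene mt-Te at 652 and 188 TPM. mt-Nd4 was at 2159 TPM in Control replicate 1 and 13.4 TPM in Control replicate 2, where its copy Gm28439 was at 13.5 TPM, and the 6 treated libraries held 1337 to 1606 TPM. The fitted log2 fold changes of mt-Nd4 therefore had an SE of 1.93 and were 2.97 for CX-5461, 3.13 for rapamycin and 3.08 for rotenone, with adjusted p of 0.232, 0.463 and 0.236 by limma. Without Control replicate 2 they were negative for CX-5461 (-0.65), rapamycin (-0.48) and rotenone (-0.53). The 3 comparisons share these Control libraries, and the fit pools their wider spread with that of the treated groups.

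With CX-5461 in mES cells, 1 of 13 mRNAs rose and 1 fell, against a background of 42.0% of all 17638 genes tested that rose and 11.0% that fell (limma on log2(TPM + 1), Benjamini-Hochberg adjusted p under 0.05). The median log2 fold change of the 13 mRNAs was 0.07 and that of all genes tested 0.43. Scaling by median ratios put the median of all genes at 0.04 and the split at 26.9% that rose and 24.3% that fell. mt-Nd5, a proton-pumping subunit of complex I, was at 2174 and 2214 TPM with CX-5461, against 1370 and 1418 TPM in Control. The groups did not overlap, and its log2 fold change was 0.65 (SE 0.07, adjusted p = 0.000522 by limma), which median-ratio scaling lowered to 0.19, past the threshold no longer. mt-Cytb fell to 3715 and 3547 TPM, against 4934 and 4132 TPM in Control, by 0.31 on the log2 scale (SE 0.09, adjusted p = 0.0279 by limma). The call was lost under 9 of 19 alternatives. Quantile scaling, which makes the ranked values of all libraries the same, reversed the change to 0.16. mt-Co1 was at 8686 and 8767 TPM, against 7563 and 8080.5 TPM, and mt-Atp8, a small subunit of complex V, at 85.9 and 94.5 TPM, against 72.8 and 40.1 TPM. Neither passed the test (adjusted p 0.0698 and 0.0571 by limma). mt-Nd1, mt-Nd2, mt-Nd6, mt-Co2 and mt-Co3 differed by -0.17 to 0.11 on the log2 scale, and both CX-5461 libraries lay between the Control libraries for all of these but mt-Co3. Leaving out Control replicate 1 gave 5 mRNAs that rose and 0 that fell, leaving out Control replicate 2 gave 3 and 7, and leaving out either CX-5461 or either rotenone replicate gave 1 and 0. Over all 36 mitochondrial genes tested, 5 rose and 5 fell; the counts were 13 and 2 without Control replicate 1, 7 and 12 without Control replicate 2 and 5 and 1 without CX-5461 replicate 1.

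Of the complex I and V mRNAs within the copied stretch, a further 3 did not pass the test with CX-5461. mt-Nd4l was at 33.0 and 41.2 TPM, against 14.4 and 35.3 TPM in Control, with an adjusted p of 0.185 by limma. mt-Nd3 was at 9.48 and 9.70 TPM, against 21.5 and 7.98 TPM, with an adjusted p of 0.395. mt-Atp6 was at 22.2 and 11.0 TPM, against 139 and 14.4 TPM, with an adjusted p of 0.306. For all 3 the Control libraries spanned more than the distance between the group means.

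Both rRNAs of the mitochondrial ribosome were higher in both CX-5461 libraries than in both Control libraries. mt-Rnr2, the large-subunit rRNA (chrM:1094-2675), was at 804 and 914 TPM with CX-5461, against 473 and 405 TPM in Control. It rose by a log2 fold change of 0.97 (SE 0.11, adjusted p = 0.000576 by limma), and the call held under all 19 alternatives, with 0.50 to 1.24. mt-Rnr1, the small-subunit rRNA (chrM:70-1024), was at 552 and 472 TPM, against 445 and 252 TPM, with a log2 fold change of 0.61 and an adjusted p of 0.0830 by limma. Among all genes tested, 57.4% were higher and 19.4% lower in both CX-5461 libraries than in both Control libraries.

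**Figure D3:**
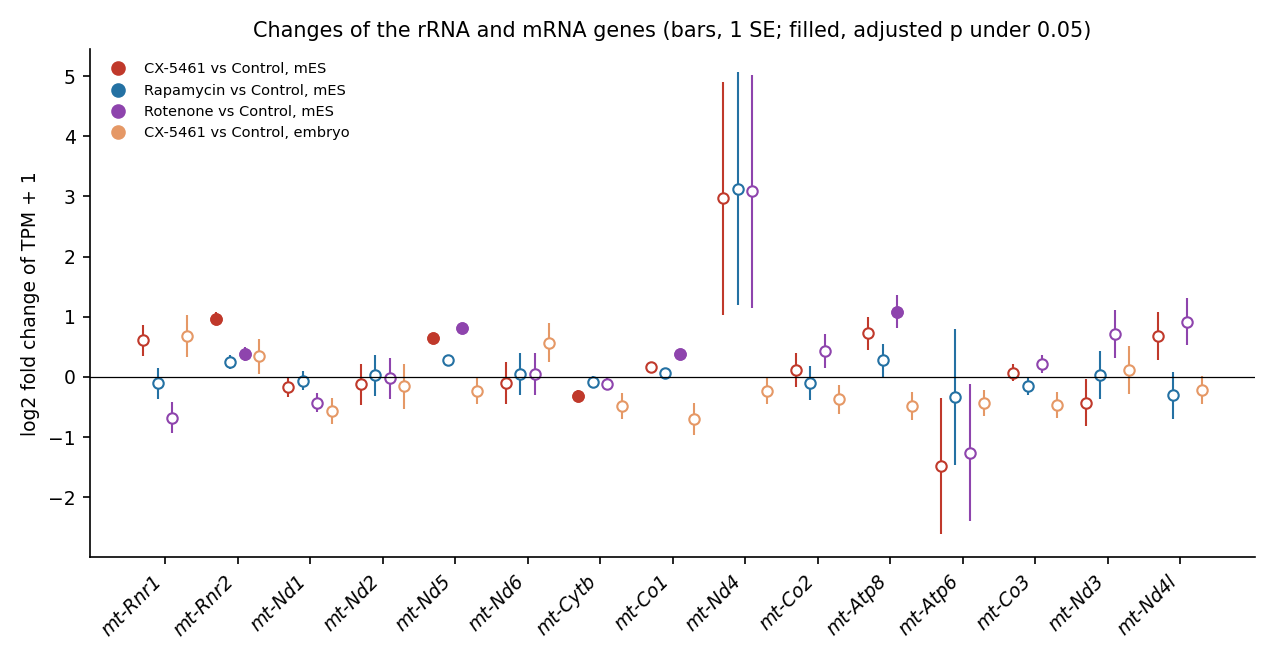
Log2 fold change of TPM + 1 for the 2 rRNA and 13 mRNA genes in 4 comparisons, with bars of 1 SE and filled points where the adjusted p is under 0.05. Filled points are mt-Rnr2, mt-Nd5 and mt-Cytb with CX-5461 and mt-Rnr2, mt-Nd5, mt-Co1 and mt-Atp8 with rotenone, all in mES cells; the widest bars are those of mt-Nd4 (SE 1.93) and mt-Atp6 (SE 1.13), and no point is filled for rapamycin or for embryos.

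Of 21 tRNA genes tested with CX-5461 in mES cells, 3 rose and 4 fell, where 42.0% of all genes rose and 11.0% fell, and mt-Ts1, at 0 in 7 of 8 libraries, was not tested. The tRNAs of the run before mt-Nd5 were higher: mt-Th was at 85.4 and 109 TPM, against 38.3 and 29.0 TPM in Control (log2 fold change 1.51, SE 0.26, adjusted p = 0.0031 by limma). mt-Ts2 was at 59.7 and 76.1 TPM, against 28.2 and 18.7 TPM (1.51, SE 0.23, adjusted p = 0.00178). Both calls held under all 19 alternatives. mt-Tl2, the last of the run, was at 29.0 and 35.1 TPM, against 26.4 and 9.53 TPM, and did not pass (0.95, adjusted p = 0.0794). mt-Tr rose as well, at the low levels of 1.43 and 3.04 TPM, against 0.582 and 0.222 TPM in Control (log2 change 1.17, adjusted p = 0.0302), and lost the call under 6 of 19 alternatives.

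The tRNA genes that fell with CX-5461 were those for methionine, glutamine, threonine and tryptophan. mt-Tm was at 3.71 and 3.54 TPM, against 14.8 and 23.9 TPM in Control, a fall by 2.10 on the log2 scale (SE 0.36, adjusted p = 0.00307 by limma) that held under all 19 alternatives. Its 3′ neighbour mt-Nd2 lay between the Control libraries, so that mt-Tm was at 0.00196 and 0.00189 of the TPM of mt-Nd2 with CX-5461, against 0.00471 and 0.0180 in Control. mt-Tq, next to mt-Tm on the opposite strand, was at 0.350 and 0.478 TPM, against 2.38 and 2.87 TPM (log2 change -1.36, adjusted p = 0.00938). mt-Tt was at 4.63 and 10.7 TPM, against 35.1 and 18.1 TPM (log2 change -1.70, adjusted p = 0.0175), and mt-Tw at 19.3 and 27.8 TPM, against 41.7 and 31.4 TPM (log2 change -0.62, adjusted p = 0.0431). The call of mt-Tw was lost under 11 of 19 alternatives, that of mt-Tt without Control replicate 1 or CX-5461 replicate 1, and that of mt-Tq without CX-5461 replicate 1. The most abundant tRNA gene, mt-Tl1 for leucine, was at 702 and 844 TPM, against 861 and 875 TPM, with an adjusted p of 0.285. mt-Te, mt-Tn and mt-Tc, for glutamate, asparagine and cysteine, lay between the Control libraries. The other 9 tRNA genes tested had log2 fold changes between -0.74 and 1.16 and none passed the test.

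**Figure D4:**
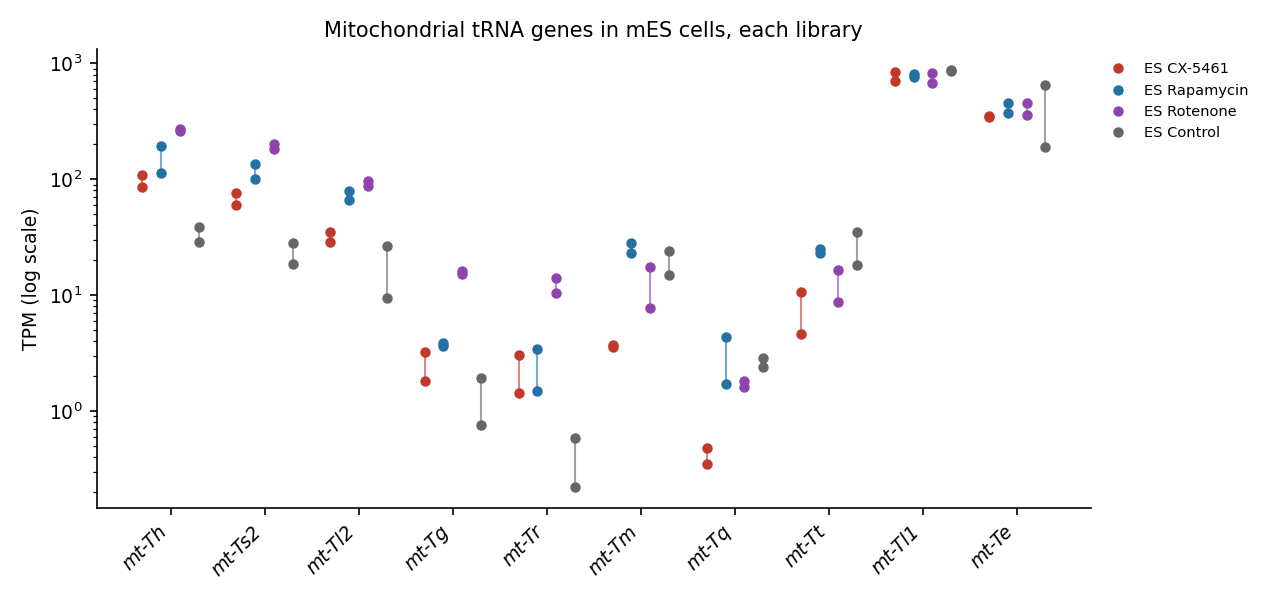
Levels of 10 mitochondrial tRNA genes in the 8 mES libraries, in TPM on a log scale, with a point for each library and a line joining the 2 libraries of a group. For mt-Th and mt-Ts2 all 6 treated libraries lie above the Control libraries and rotenone is highest, at 262 to 274 TPM for mt-Th; for mt-Tm the CX-5461 libraries lie lowest, at 3.54 and 3.71 TPM.

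With rapamycin, 0 of 36 mitochondrial genes passed the test, against a background of 0.0113% of all genes, 2 genes, both lower. At an unadjusted p under 0.05, 6 of the 36 were higher and 0 lower, and 10.4% of all genes were higher and 2.89% lower by limma, the tool used for every count here. The median log2 fold change of the 13 mRNAs was 0.03, and that of all genes tested 0.13. The 6 genes were mt-Th, mt-Ts2, mt-Tl2, mt-Tg, mt-Tr and mt-Nd5. mt-Th was at 193 and 113 TPM with rapamycin, against 38.3 and 29.0 TPM in Control (log2 fold change 2.12, SE 0.26, adjusted p = 0.0994 by limma), and mt-Ts2 at 136 and 100.3 TPM, against 28.2 and 18.7 TPM (2.29, SE 0.23, adjusted p = 0.0588). mt-Tl2 was at 66.8 and 79.8 TPM, against 26.4 and 9.53 TPM (2.12, SE 0.40, adjusted p = 0.188). The groups did not overlap for the run, and 29.5% of all genes tested were likewise higher in both rapamycin libraries than in both Control libraries. mt-Nd5 was at 1771 and 1625 TPM, against 1370 and 1418 TPM (0.28, SE 0.07, adjusted p = 0.249). Without Control replicate 1, mt-Nd4, mt-Ts2 and mt-Tl2 passed the test, without Control replicate 2 mt-Th, mt-Ts2 and mt-Tl2, and without rapamycin replicate 2 mt-Th, all higher.

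With rotenone, which binds the complex whose membrane arm the mt-Nd genes encode, 3 of 13 mRNAs rose and 0 fell, against a background of 30.6% of genes that rose and 9.57% that fell (19.6% and 19.2% under median-ratio scaling). The median log2 fold change of the 13 mRNAs was 0.39, and that of all genes 0.27, or 0.02 under median-ratio scaling. mt-Nd5 was at 2385 and 2520 TPM with rotenone, against 1370 and 1418 TPM in Control. Its log2 fold change was 0.81 (SE 0.07, adjusted p = 0.000902 by limma), and the call held under all 19 alternatives, with 0.49 to 1.01. mt-Co1 was at 10032 and 10419.6 TPM, against 7563 and 8080.5 TPM (0.39, SE 0.06, adjusted p = 0.00481), a call lost under median-ratio scaling (0.06), under quantile scaling, where this gene is fixed at the top, and with no filter on low values. mt-Atp8 was at 128 and 105 TPM, against 72.8 and 40.1 TPM (1.09, SE 0.27, adjusted p = 0.0200); it shares 43 bases with mt-Atp6, shown here in capitals within the 3′ end of mt-Atp8 (chrM:7766-7969, plus strand), and lost the call under median-ratio scaling and without rotenone replicate 1 or replicate 2.
mt-Atp8: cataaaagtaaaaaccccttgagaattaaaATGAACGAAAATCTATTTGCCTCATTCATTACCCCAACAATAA
Of the other complex I genes, mt-Nd1 was at 3616 and 3881 TPM, against 6059 and 4193 TPM, and its log2 fold change of -0.43 had an adjusted p of 0.0694 by limma. Within the 5 genes outside the copied stretch, mt-Nd5 thus made up 17.5 and 17.1% of their summed TPM with rotenone, 15.5 and 16.3% with CX-5461 and 12.5 and 10.6% with rapamycin, against 7.54 and 11.6% in Control. mt-Nd1 made up 26.5 and 26.4% with rotenone, 32.3 and 32.6% with CX-5461 and 32.7 and 33.0% with rapamycin, against 33.3 and 34.3% in Control. mt-Nd2, mt-Nd6, mt-Cytb, mt-Co2, mt-Co3, mt-Nd3, mt-Nd4l and mt-Atp6 did not pass, with log2 fold changes of -1.26 (mt-Atp6) to 0.92 (mt-Nd4l). Without Control replicate 1, 8 mRNAs rose and 0 fell, and without Control replicate 2, 4 rose and 5 fell; without rotenone replicate 1 or replicate 2, 2 rose and 0 fell. Over all 36 genes 11 rose and 0 fell; the counts were 18 and 0 without Control replicate 1 and 10 and 7 without Control replicate 2.

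With rotenone mt-Rnr2 passed the test and mt-Rnr1 did not; the difference between them was not tested. mt-Rnr2 was at 539 and 605 TPM, against 473 and 405 TPM in Control (log2 fold change 0.38, SE 0.11, adjusted p = 0.0335 by limma), and lost the call under 8 of 19 alternatives. mt-Rnr1 was at 208 and 210.1 TPM, against 445 and 252 TPM (-0.68, SE 0.26, adjusted p = 0.0717). The ratio of mt-Rnr1 to mt-Rnr2 was 0.385 and 0.347 with rotenone, 0.687 and 0.517 with CX-5461 and 0.535 and 0.666 with rapamycin, against 0.941 and 0.622 in Control.

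With rotenone 7 of 21 tRNA genes rose and 0 fell, where 30.6% of all genes rose and 9.57% fell. mt-Th was at 274 and 262 TPM, against 38.3 and 29.0 TPM in Control (log2 fold change 2.97, SE 0.26, adjusted p = 0.000804 by limma), mt-Ts2 at 199.9 and 182 TPM, against 28.2 and 18.7 TPM (3.00, SE 0.23, adjusted p = 0.000566), and mt-Tl2 at 96.0 and 86.9 TPM, against 26.4 and 9.53 TPM (2.44, SE 0.40, adjusted p = 0.00472). Levels of mt-Th stayed at 1.13 to 1.55 times those of mt-Ts2 in all 8 mES libraries while both changed. mt-Tg was at 15.3 and 16.2 TPM, against 0.750 and 1.94 TPM (log2 change 2.89, adjusted p = 0.00121), and mt-Tr at 14.0 and 10.4 TPM, against 0.582 and 0.222 TPM (log2 change 3.24, adjusted p = 0.00149). These 5 calls held under all 19 alternatives. mt-Tv, for valine, at 2.84 and 6.61 TPM, against 0.663 and 1.58 TPM, and mt-Tk, for lysine, at 1.10 and 1.76 TPM, against 0.667 and 0 TPM, passed more narrowly (adjusted p 0.0445 and 0.0380) and lost the call under 9 of 18 and 12 of 16 alternatives. All 7 tRNA genes that rose lie on the plus strand, which carries 14 of the 21 tested.

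Set directly against CX-5461, rotenone gave higher levels of 1 mRNA and 8 tRNA genes and lower levels of both rRNAs, against a background of 4.93% of genes higher and 17.2% lower (8.60% and 13.4% under median-ratio scaling). mt-Rnr1 was at 208 and 210.1 TPM with rotenone, against 552 and 472 TPM with CX-5461 (log2 fold change -1.29, SE 0.26, adjusted p = 0.0131 by limma), and mt-Rnr2 at 539 and 605 TPM, against 804 and 914 TPM (-0.59, SE 0.11, adjusted p = 0.0113). The tRNA genes mt-Th (1.46), mt-Ts2 (1.49), mt-Tl2 (1.49), mt-Tg (2.28) and mt-Tr (2.06) were higher with rotenone, and so were mt-Tm (1.46), mt-Tw (0.81) and mt-Tk (1.19), with adjusted p between 0.00264 and 0.0370 by limma. mt-Tg alone kept its call under all 19 alternatives. mt-Co1 was 0.23 higher on the log2 scale (SE 0.06, adjusted p = 0.0414), which 11 of 19 alternatives lost. mt-Nd5, higher with both compounds than in Control, was 0.16 higher with rotenone than with CX-5461 (SE 0.07, adjusted p = 0.172). Without CX-5461 replicate 1 or replicate 2 the genes called among the 36 numbered 2 and 5, without rotenone replicate 1 or replicate 2 they numbered 3 and 4, and the call of mt-Co1 was lost in all of these.

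In CX-5461-treated embryos 0 of 36 mitochondrial genes passed the test, against a background of 0.00753% of 13289 genes, 1 gene. At an unadjusted p under 0.05, 3 of the 36 were higher and 5 lower, and 8.66% of all genes were higher and 3.72% lower. Of the 13 mRNAs, 10 were lower in both CX-5461 libraries than in both Control libraries and 0 were higher in both. By this rule 19.2% of all genes tested were lower and 27.6% higher. The separation depends on the rescaling of Control replicate 1. With the values as deposited, 420 of all genes passed the test as higher and 32 as lower (limma), in place of 1 and 0. mt-Nd1 was at 11585 and 12024 TPM with CX-5461, against 17524 and 17414 TPM in Control (log2 fold change -0.57, SE 0.21, adjusted p = 0.367 by limma). mt-Cytb was at 11920 and 13039 TPM, against 16200 and 18739 TPM (-0.48), and mt-Co1 at 7962 and 11812 TPM, against 14451 and 17168 TPM (log2 change -0.70, adjusted p = 0.372). mt-Co2, mt-Co3, mt-Atp6, mt-Atp8, mt-Nd4, mt-Nd4l and mt-Nd5 were the other 7, with log2 fold changes of -0.48 to -0.21. mt-Nd2, mt-Nd3 and mt-Nd6 overlapped between the groups, and CX-5461 replicate 1 was the highest of the 4 libraries for each. mt-Nd2 was at 7075 and 3097 TPM, against 5149 and 5287 TPM. mt-Nd6 was at 6206 and 3492 TPM, against 3562 and 2758 TPM (log2 change 0.57, adjusted p = 0.497 by limma). The median log2 fold change over the 13 mRNAs was -0.37, and over all genes 0.05. Leaving out either CX-5461 replicate leaves 1 library in that group, and the calls then depended on which was dropped. More genes were called without CX-5461 replicate 2 than without CX-5461 replicate 1, among the mitochondrial genes and over all genes alike.

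Among embryo tRNA genes mt-Tm, at 696 and 487 TPM with CX-5461, against 1578 and 2056 TPM in Control, had the lowest unadjusted p of the 36 (0.000598; log2 fold change -1.63, SE 0.29, adjusted p = 0.126 by limma). Its neighbour mt-Tq was at 240.3 and 141 TPM, against 348 and 471 TPM (log2 change -1.13, adjusted p = 0.283). mt-Tl1, at 723 and 888 TPM, against 1101 and 1400.5 TPM, was the other tRNA gene lower at an unadjusted p under 0.05. mt-Te, mt-Tt and mt-Tk were the 3 that were higher at that level; mt-Te was at 1707 and 919.8 TPM, against 751 and 569 TPM (log2 change 0.94, adjusted p = 0.367). Of the run before mt-Nd5, mt-Th was at 38.5 and 16.4 TPM, against 10.00 and 16.7 TPM, and the groups overlapped; mt-Ts2, at 0.761 and 12.9 TPM, against 0.175 and 0.140 TPM, was not tested. mt-Rnr1 was at 3953 and 1984 TPM, against 1705 and 1795 TPM, and mt-Rnr2 at 19432 and 11504 TPM, against 12122 and 11476 TPM; CX-5461 replicate 1 was high for both, and neither passed (adjusted p 0.459 and 0.626).

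The nuclear genes that transcribe or replicate the mitochondrial genome or process, modify and stabilize its RNAs, together with regulators of mitochondrial biogenesis, were taken as a list of 67. With CX-5461 in mES cells, 13 of 65 tested rose and 11 fell, against 42.0% and 11.0% of all genes, and their median log2 fold change was 0.06, against 0.43 over all genes. Polrmt, the mitochondrial RNA polymerase, was at 32.6 and 36.8 TPM with CX-5461, against 22.6 and 26.9 TPM in Control (log2 fold change 0.47, adjusted p = 0.0237 by limma), or -0.0335 with the trend of fold change with exon length removed. Tfb1m, an rRNA methyltransferase, was at 20.5 and 19.8 TPM, against 25.3 and 27.9 TPM (log2 change -0.38, adjusted p = 0.0275), and the termination factor family member Mterf1a at 4.59 and 4.90 TPM, against 8.23 and 7.76 TPM (log2 change -0.65, adjusted p = 0.0271). Top1mt, the mitochondrial topoisomerase, rose most, with 25.4 and 25.0 TPM, against 8.22 and 6.98 TPM (log2 change 1.61, adjusted p = 0.000354). Rrm2b, a subunit of the p53-inducible ribonucleotide reductase, was at 7.79 and 9.59 TPM, against 2.95 and 2.12 TPM (log2 change 1.46, adjusted p = 0.000908). Nsun3, which modifies mitochondrial tRNA for methionine, was at 9.63 and 9.28 TPM, against 4.27 and 3.78 TPM (log2 change 1.06, adjusted p = 0.00109 by limma). mt-Tm was lower in the same comparison, and a link between them was not tested. Taco1, an activator of mt-Co1 translation in mouse, rose by 0.97, Mrm1, an rRNA methyltransferase, by 0.73 and the kinase Tk2 by 0.72 on the log2 scale. Nrf1, a transcription factor of nuclear mitochondrial genes, fell by 0.63 (adjusted p = 0.00161), Pprc1 fell by 0.69, and Esrra rose by 0.49. The 24 calls became 11 without CX-5461 replicate 1 or replicate 2 and 14 without Control replicate 1.

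With rotenone 10 of the 65 rose and 6 fell, against 30.6% and 9.57% of all genes, with a median of 0.03, against 0.27 over all genes. Tfam, which packages mitochondrial DNA and starts its transcription, was at 39.4 and 37.0 TPM, against 52.1 and 51.1 TPM in Control (log2 fold change -0.42, adjusted p = 0.0252 by limma), and Tfb1m fell by 0.49. Trub2, a pseudouridine synthase of the mitochondrial RNA granule, rose by 1.04, Nsun3 by 0.91, Rrm2b by 1.07, Primpol by 0.79, Top1mt by 0.70 and the transcription factor Gabpa by 0.59, and the rRNA methyltransferase Mrm2 fell by 0.75. Removing the trend of fold change with exon length turned the split to 3 that rose and 22 that fell, and that of all genes to 15.7% and 17.6%. The 16 calls became 3 without rotenone replicate 1, 4 without rotenone replicate 2 and 10 without Control replicate 1. Against CX-5461, 2 of the 65 were higher and 3 lower with rotenone: Top1mt (-0.91), Dna2 (-0.56) and Polrmt (-0.51) fell, and Nrf1 (0.54) and Mtpap (0.53), the mitochondrial poly-A polymerase, rose. The calls became 8 without either Control library and 0 without any library of either compound. With rapamycin 0 of 65 passed, 6 being higher and 2 lower at an unadjusted p under 0.05; the most abundant members, Tfam, Mterf3, Grsf1, Rexo2, Ssbp1, Polg, Gabpa and Nrf1, had log2 fold changes of -0.35 (Ssbp1, of DNA replication) to 0.62 (Polg, the DNA polymerase). In embryos 0 of 66 passed with CX-5461. At an unadjusted p under 0.05, 1 was higher and 3 lower by limma, where 8.66% and 3.72% of all genes were. Without CX-5461 replicate 2 the list gained calls, and so did all genes tested. Tefm, the elongation factor, was at 32.5 and 58.5 TPM, against 67.2 and 75.4 TPM (log2 change -0.69, adjusted p = 0.453 by limma). Mterf3, Rexo2, Hsd17b10, Ssbp1, Dguok, Gabpa and Gabpb1 had log2 fold changes of -0.83 (Gabpa) to 0.40 (Rexo2).

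The nuclear-encoded subunits of complexes I, III, IV and V were taken as a list of 72. With CX-5461 in mES cells 37 of 71 tested fell and 1 rose (Ndufs5), where 11.0% of all genes fell and 42.0% rose, against 1 fall and 1 rise among 13 mitochondrial mRNAs; the difference between the lists was not tested. Fibroblast markers, at 3396 to 3577 TPM in sum with CX-5461, against 731 to 912 TPM in Control, moved in the same comparison, and their part in these counts was not tested. By complex, 14 of 36 subunits of complex I, 6 of 9 of complex III, 6 of 11 of complex IV and 11 of 15 of complex V fell. Cox5a of complex IV was at 615 and 550.0 TPM with CX-5461, against 1293 and 1088 TPM in Control (log2 fold change -1.03, SE 0.12, adjusted p = 0.000686 by limma), where mt-Co1 of the same complex had a log2 fold change of 0.16. Cyc1 of complex III was at 229.6 and 229.8 TPM, against 455 and 430.3 TPM (log2 change -0.94, adjusted p = 0.000235), Atp5g1 of complex V at 433 and 335.5 TPM, against 801 and 669 TPM (log2 change -0.94, adjusted p = 0.00228), and Ndufb8 of complex I at 205 and 181 TPM, against 385 and 314 TPM (log2 change -0.85, adjusted p = 0.00332). Uqcrb, Uqcr10, Cox7a2, Cox7c, Atp5j2, Atp5g3, Ndufs6 and Ndufs8 fell by 0.50 to 0.85 on the log2 scale. The count of falls was 60 under median-ratio scaling and 51 with the length trend removed, where 24.3% and 25.9% of all genes fell. It was lower without Control replicate 1 or CX-5461 replicate 2, and so was the share of all genes.

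With rotenone 22 of the 71 fell and 0 rose, where 9.57% of all genes fell and 30.6% rose. Among the 22 were Cox5a (810.1 and 800.5 TPM, against 1293 and 1088 TPM in Control; log2 fold change -0.56, adjusted p = 0.0137 by limma), Cyc1 (-0.58), Uqcrh (-0.57), Uqcrb (-0.57), Cox7a2 (-0.46), Ndufs7 (-0.77), Ndufa5 (-0.61), Ndufv3 (-0.59), Atp5j (-0.73), Atp5g1 (-0.72) and Atp5h (-0.53). The count was 43 under median-ratio scaling, where 19.2% of all genes fell. It was higher without Control replicate 2. Without Control replicate 1 or either rotenone replicate the falls were few and no longer stood clear of the share of all genes. With rapamycin 1 of 71 passed: Uqcrc1, a core protein of complex III, was at 9.06 and 9.55 TPM, against 187 and 115 TPM in Control (-3.84, SE 0.29, adjusted p = 0.0300), and it was 1 of the 2 genes of the whole table called lower; the call was lost without either rapamycin or either rotenone library, under median-ratio and quantile scaling, with no filter, with a prior without trend and with 2 groups alone. The most abundant members of the other complexes, Ndufa7, Ndufb9, Cox5a, Cox6a1, Atp5b and Atp5g3, had log2 fold changes of -0.27 to 0.05. Set against CX-5461, rotenone gave higher Ndufs8 (0.54), Cox5a (0.47), Atp5c1 (0.43), Atp5b (0.43) and Cyc1 (0.36) and lower Ndufb6 (-0.59), a count of 6 that became 0 without any library of either compound. In embryos 0 of 72 passed with CX-5461, with 6 higher and 3 lower at an unadjusted p under 0.05; Cox4i1 was at 2726 and 2523 TPM, against 1597 and 1425 TPM (log2 change 0.80, adjusted p = 0.275), and Atp5b at 589 and 1348 TPM, against 1646 and 1653 TPM (log2 change -0.89, adjusted p = 0.415). Ndufb6, Ndufa7, Uqcr10, Uqcrb, Cox5a and Atp5g1 had -0.06 (Cox5a) to 0.62 (Ndufb6). There 37 of the 72 nuclear-encoded subunits were higher in both CX-5461 libraries than in both Control libraries and 15 lower, beside 0 and 10 of the 13 mitochondrial mRNAs and 27.6% and 19.2% of all genes. More subunits were called without CX-5461 replicate 2 than without CX-5461 replicate 1, as held for all genes tested.

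**Figure D5:**
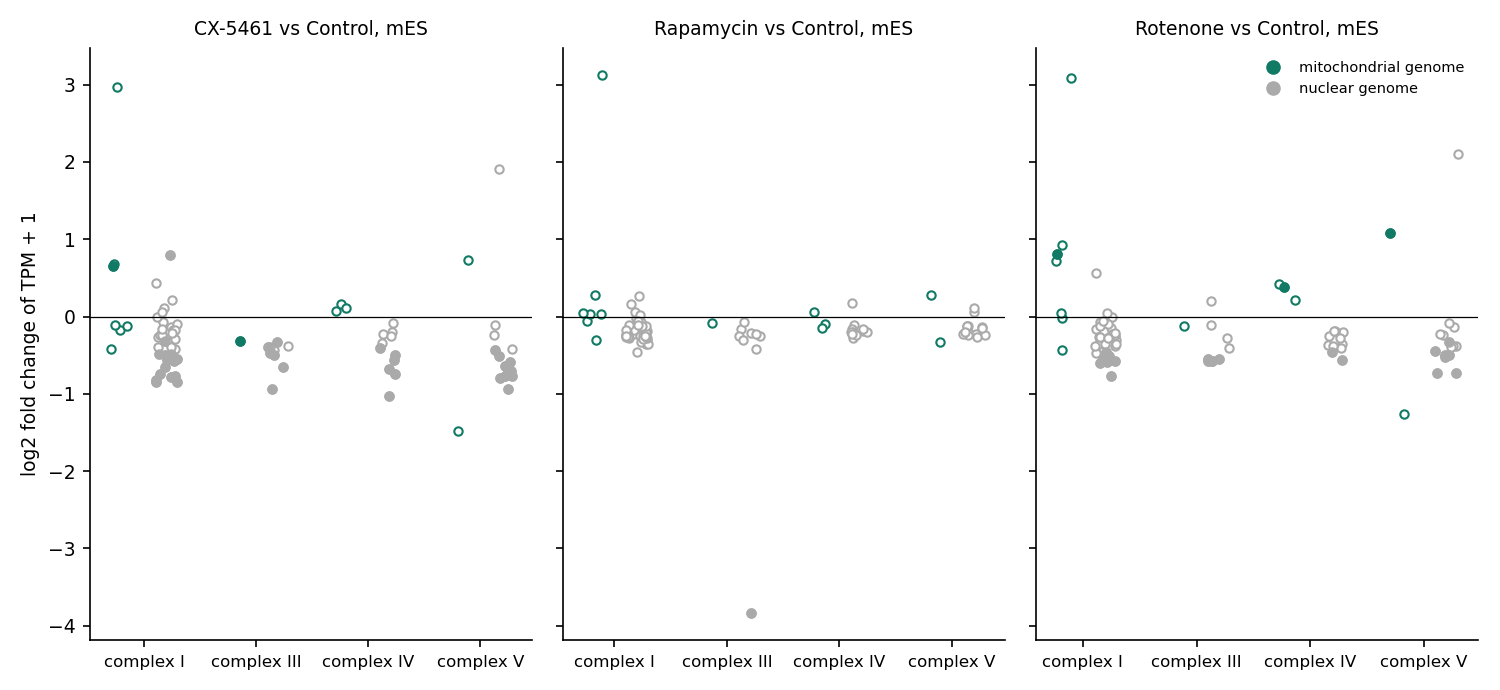
Log2 fold change of TPM + 1 of mitochondrial-encoded (green) and nuclear-encoded (grey) subunits of complexes I, III, IV and V with each compound in mES cells, with a point for each gene, filled where the adjusted p is under 0.05. Most filled grey points lie below 0 with CX-5461 (37 of 38) and rotenone (22 of 22), where the green points scatter on either side; the green points near 3 are mt-Nd4 and the grey point at -3.84 is Uqcrc1.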

How the data were processed

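RNA-seq libraries of mES cells and of pooled, pre-amplified embryos were described by gene tables in TPM. The authors trimmed reads with Trimmomatic and the FASTX tools, aligned them to mm10 with HISAT2, removed duplicates with Picard, kept uniquely mapped reads for single-copy genes, and deposited TPM, read density per gene length scaled to a fixed total, from StringTie with GENCODE annotation; the labels name CASAVA 1.8 as well. How reads that match a gene and an identical copy were treated in each table is not given in the sources used here. TPM keep no read depth, so counting error is unknown. The tables list 53715 genes, of which 53620 matched GENCODE M21 identifiers used here for names, positions and sequences. Of the nuclear copies listed by name, Gm29215 held no match to the mitochondrial genome, and Gm10222, found by sequence, was used with the other 6.

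Each library was scaled to a total of 1000000. Genes at 1 TPM or more in at least 2 libraries of a table were tested on log2(TPM + 1) with limma 3.58.1 in R 4.3.3, with an intensity trend. The 8 mES libraries in 4 groups shared one fit, and the 4 embryo libraries another. P-values are two-sided, with Benjamini-Hochberg adjustment over all genes tested and a threshold of 0.05; fold changes on this scale understate the change of low genes. Alternatives were other pseudocounts, filters, scalings, priors, a fit of 2 groups alone, removal of the exon length trend, a replicate block and each library left out. The members and lists were chosen with earlier results of these data known. The text names every mRNA and rRNA gene, each tRNA gene called in any comparison and the 5 most abundant in mES cells, the nuclear copies that reach 1 TPM, and of each nuclear list the 3 called members of largest change per comparison or, with none called, the 2 most abundant; Ndufs5 and the fibroblast markers at 0 were named after their values were seen. Matplotlib 3.10.9 drew the plots.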

Additional observations from a re-analysis of the deposited data

Results flagged for a closer look

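With CX-5461, 4 of the 35 mitochondrial genes tested in both tables had levels on opposite sides of Control in mES cells and in embryos, both treated libraries lying beyond both of their Control libraries. Of all 11839 genes tested in both tables, 13.4% did so by the same rule, against 11.4% of the mitochondrial genes; the difference between the settings was not tested. mt-Co1 had a log2 fold change of 0.16 in mES cells and -0.70 in embryos. mt-Atp8 had 0.73 in mES cells and -0.48 in embryos, and mt-Nd5 had 0.65 in mES cells and -0.23 in embryos. mt-Tt had -1.70 in mES cells and 1.04 in embryos. Only mt-Nd5 and mt-Tt in mES cells passed the test (limma, adjusted p 0.000522 and 0.0175).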

How the results depend on the processing

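The calls of mt-Rnr2, mt-Tm, mt-Th and mt-Ts2 with CX-5461, of mt-Nd5, mt-Tg, mt-Tr, mt-Th, mt-Ts2 and mt-Tl2 with rotenone, and of mt-Tg between the compounds held under all 19 alternatives. TPM without read counts and 2 libraries a group set the precision, and the cause of each change below was not tested unless the alternative drops genes or samples. Over single genes, 6653 values kept their direction and side of the threshold, 373 lost the call, 178 gained it, 302 moved and 13 reversed, which counts a change of sign only where either value passed the test.

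With CX-5461 in mES cells, 1 mRNA was called in place of 2 with no filter, with median-ratio or quantile scaling, with a prior without trend and with 2 groups alone, and 14 of the nuclear mitochondrial-gene-expression list in place of 24 with 2 groups alone. With rotenone, 1 mRNA in place of 3 was called under median-ratio scaling and among genes outside the copied stretch, 7 of all members in place of 11 with no filter or median-ratio scaling, and 25 of the nuclear list in place of 16 with the length trend removed. Between rotenone and CX-5461, the 1 mRNA call became 0 with no filter, median-ratio scaling, a prior without trend or genes outside the stretch, 3 with the length trend removed and 4 with 2 groups alone; all members fell to 7 of 11 with no filter; the nuclear list went from 5 to 11 under median-ratio scaling or 2 groups alone, 9 under quantile scaling and 14 with the length trend removed. Alternatives for the nuclear-encoded complex subunits and for mRNAs outside the stretch were chosen after seeing the data: median-ratio scaling gave 60 with CX-5461, 0 with rapamycin, 43 with rotenone and 3 between rotenone and CX-5461, where removing the length trend gave 14.

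Deviations of same-numbered libraries correlated between -0.298 and 0.170. With 1 deviation per group, this cannot decide whether replicate numbers pair the samples. A replicate block gave 0 mRNAs between rotenone and CX-5461 in place of 1, and 1 mitochondrial gene in embryos, mt-Tm, in place of 0; it moved no other count among mRNAs, all members or the nuclear gene-expression list by over 1.5 times. Over all genes tested, the block gave 80 higher and 12 lower in embryos in place of 1 and 0, 550 higher in place of 869 between rotenone and CX-5461, and 1 lower in place of 2 with rapamycin.

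The mean mRNA share was 2.76% with rRNAs and tRNAs and 2.48% with nuclear copies in CX-5461-treated mES cells, 2.78% and 2.96% with rRNAs and tRNAs under rapamycin and rotenone, 10.3% with rRNAs and tRNAs and 11.1% with copies in CX-5461-treated embryos, and 12.4% and 14.2% by the same additions in Control embryos, or 8.64% with the values as deposited. Reversed fold changes were, with the length trend removed, Dna2 (-0.33) and Polrmt (-0.0335) with CX-5461 and Mtpap (-0.44) with rotenone, and under quantile scaling mt-Cytb with CX-5461 (0.16) and rotenone (0.46). Leaving out 1 library reversed 8 others, with further changes of sign where neither value passed, such as mt-Nd4 with rapamycin (-0.48 without Control replicate 2). For the 8, ranges over the libraries left out were -0.74 to 0.50 for mt-Nd2, -0.65 to 6.58 for mt-Nd4 and -0.91 to 0.88 for mt-Te with CX-5461, -0.64 to 0.60 for mt-Nd2, -0.53 to 6.70 for mt-Nd4, -0.56 to 0.65 for mt-Nd6 and -0.69 to 1.10 for mt-Te with rotenone, and -0.75 to 0.44 for mt-Nd2 in embryos. In mES cells these ends came from leaving out Control replicate 1 or Control replicate 2, and in embryos from leaving out CX-5461 replicate 1 or CX-5461 replicate 2.

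With each library left out in turn, calls among all members ranged from 6 to 19 with CX-5461, 0 to 3 with rapamycin, 8 to 18 with rotenone, 2 to 14 between rotenone and CX-5461 and 0 to 24 in embryos. Those among mRNAs ranged from 1 to 10, 0 to 1, 2 to 9, 0 to 3 and 0 to 8 in that order, those of the nuclear gene-expression list from 11 to 25, 0 to 0, 3 to 21, 0 to 8 and 0 to 17, and those of complex subunits from 15 to 44, 0 to 1, 1 to 35, 0 to 7 and 0 to 45. The mRNA share ranged from 2.41 to 2.46% with CX-5461, 2.42 to 2.54% with rapamycin, 2.57 to 2.72% with rotenone and 2.06 to 2.84% in Control mES cells, and from 7.83 to 8.11% with CX-5461 and 10.2 to 10.8% in Control embryos.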
